A study of Rattus norvegicus with 45 samples.

Results

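Acetaminophen (APAP), a common painkiller, is toxic to the liver in overdose. The question addressed here was how the effect of APAP on hepatic gene expression changed between 6 and 9 h after dosing in rats, and whether the APAP or the vehicle animals moved. For each gene the APAP minus vehicle difference at 6 h was subtracted from that at 9 h, so that a positive value stands for an effect that was higher at 9 h. The comparison took 20 of the 45 animals of the series, namely the groups Rat_APAP_09h, Rat_Vehicle_09h, Rat_APAP_06h and Rat_Vehicle_06h with 5 animals each. All were male Sprague-Dawley rats aged 5 weeks. All had been fasted for 16 h, and each received a single oral gavage of vehicle, 1% hydroxyethylcellulose, into which 1000 mg/kg of APAP was mixed for the APAP groups. Each animal was killed at 1 time only, so a change from 6 to 9 h compares different animals, and food was returned after dosing, so in the vehicle animals time after dosing, refeeding and clock time cannot be told apart.

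APAP is oxidised in hepatocytes to a reactive quinone imine that uses up glutathione, binds proteins and damages mitochondria. Cells that meet damaged protein switch on heat shock chaperones through Hsf1, cells that meet electrophiles switch on detoxifying enzymes through Nrf2, and cells short of amino acids or with a stressed endoplasmic reticulum (ER) switch on Atf4. The liver of a refed animal meanwhile turns from making glucose to making fat. In the account below the genes are ordered by these roles.

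Each array gave a log2 expression value, normalised together with the other arrays by robust multiarray averaging (RMA), for 13877 genes. The tissue carried the transcripts that define hepatocytes, since the group means of Alb, which encodes albumin, lay between 15.01 and 15.04, and those of Ttr, which encodes transthyretin, between 14.51 and 14.62. Arrays of a group correlated with r between 0.987 and 0.996 across genes. The first principal component of the 20 arrays held 67.3% of the variance and separated APAP from vehicle animals. The third, with 4.21%, set animals 2 and 3 of the APAP group at 9 h (scores of 16.6 and 13.2) apart from animals 1, 4 and 5 of that group (-11.2, -11.0 and -12.4), and the counts of several lists, given beside them, moved without one or the other set. Whole liver was measured, so fewer cells of a type and less RNA per cell cannot be told apart. Levels are given as log2 values and differences as log2 units ± SE from one limma fit of the 20 arrays, and a gene was called, or is said to have risen or fallen, at an adjusted p under 0.05 with a difference of at least 1.5-fold.

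The effect of APAP was higher at 9 h than at 6 h for 231 genes (1.66% of those tested) and lower for 203 (1.46%). In the APAP animals 188 genes rose from 6 to 9 h (1.35%) and 129 fell (0.93%). In the vehicle animals 26 rose (0.187%) and 27 fell (0.195%). The effect itself was called for 982 genes above vehicle (7.08%) and 977 below it (7.04%) at 6 h, and for 1212 above (8.73%) and 1173 below (8.45%) at 9 h. The split between higher and lower depended on the scale, as centring each array on 10 ribosomal protein genes moved the median difference of all genes by -0.15 and gave 122 higher and 482 lower, although no named gene turned its direction. Without animals 2 and 3 of the APAP group at 9 h the difference was called for 525 genes, and without animals 1, 4 and 5 for 688. Both sets were picked from the spread of these same arrays, so these counts only describe it. With fewer animals left in that group, a lost call need not mean a smaller difference.

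Most of the called genes moved mainly in the APAP animals. Of the 434, 204 had a called change from 6 to 9 h in the APAP animals alone (123 with a higher effect at 9 h, 81 with a lower one), 22 in the vehicle animals alone (8 and 14) and 8 in both (3 and 5). For the other 200 neither change was called by itself, and in all 200 the APAP and vehicle means had moved in opposite directions. This follows largely from the call rule, since uncalled changes in both arms give a called difference mainly when they are opposed. The larger part of the difference lay in the APAP animals for 352 genes and in the vehicle animals for 82. By the calls against vehicle at each time, 144 genes were called at 9 h alone and 82 at 6 h alone. At both times 94 were called with a larger effect at 9 h, 31 with a smaller one and 4 with opposite signs. The other 79 were called at neither time, which need not mean no effect. With no fold threshold 3 of 1225 genes were called at neither time. A difference of at least 2-fold was reached by 109 of the 434 genes.

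**Figure D1:**
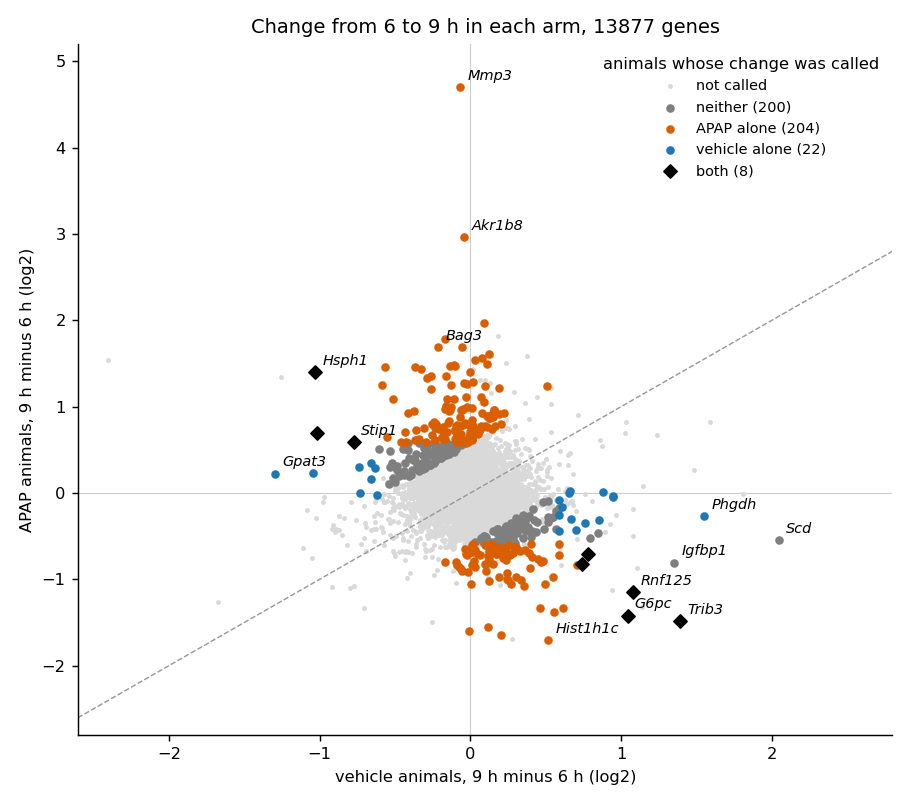
Change from 6 to 9 h in the vehicle animals (x axis, log2) against that in the APAP animals (y axis, log2) for 13877 genes, coloured by the arm in which a called gene had a called change, with the dashed line marking equal change. Of the 204 genes called in the APAP animals alone, among them Mmp3 at 4.70, 148 had means that moved in opposite directions in the arms. The 8 called genes with a called change in both arms lie in the quadrants of opposite change.

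The largest difference of all was in Mmp3, which encodes stromelysin, a protease that degrades the extracellular matrix. In the APAP animals Mmp3 lay at 6.58, 5.54, 4.48, 5.34 and 5.57 at 6 h and at 10.32, 10.60, 10.35, 10.08 and 9.67 at 9 h. In the vehicle animals it lay at 4.31, 4.47, 4.46, 4.43 and 4.53 at 6 h and at 4.41, 4.29, 4.46, 4.41 and 4.30 at 9 h. The APAP groups did not overlap between times, the vehicle groups did, and animal 3 at 6 h was still within the vehicle range. The effect grew by 4.77 ± 0.34 (27.2-fold, limma adjusted p = 9.36e-08), from 2.09-fold at 6 h to 56.9-fold at 9 h.

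The list of matrix remodelling and plasminogen genes, of which 27 were measured, had 8 members with a higher effect at 9 h and none with a lower one, and all 8 rose in the APAP animals while none moved in the vehicle animals. The median difference of the list was 0.315 against 0.004 over all genes. Mmp13, the interstitial collagenase of rodents, lay at 4.17 to 4.76 in the APAP animals at 6 h and at 7.81, 5.76, 4.94, 5.75 and 6.15 at 9 h, while the vehicle animals stayed between 3.90 and 4.08 (difference 1.75 ± 0.44, limma adjusted p = 0.0166). Mmp12, the macrophage elastase, lay at 7.93, 8.13, 8.78, 6.87 and 7.23 at 9 h, above every other animal, which all lay at or below 6.51 (1.51 ± 0.32). Plaur, the urokinase receptor on the cell surface, had separated from vehicle at 6 h (1.12) and did so further at 9 h (2.39, difference 1.27 ± 0.23). The remaining 4 were Lgals3 (1.01), which encodes galectin 3, the hyaluronan receptor gene Cd44 (0.98), Timp1 (0.74), an inhibitor of these proteases, and Anxa2 (0.70), a plasminogen receptor. Members such as Mmp9 (0.12), Spp1 (0.14) and Timp2 (0.03), singled out after their values were seen, stayed near 0. Without animals 2 and 3 of the APAP group at 9 h the count was 11, and without animals 1, 4 and 5 it was 8 beside 1 lower. With ribosomal centring it was 6 higher and 1 lower.

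Markers of infiltrating and other liver cells were read beside this list. Of 10 neutrophil and monocyte markers none was called in the difference with all animals and 2 were called higher without animals 2 and 3 of the APAP group at 9 h, and S100a8 and S100a9, a pair of calcium-binding proteins abundant in neutrophils, rose from 6 to 9 h in the APAP animals (1.05 and 1.81). S100a8 lay at 6.38, 4.45, 4.24, 4.82 and 5.69 at 9 h and at 4.02 to 4.14 at 6 h. The mean level over the neutrophil and monocyte list ran from 5.95 to 6.15 in the APAP animals at 6 h and from 6.05 to 6.84 at 9 h, against 6.14 to 6.24 and 6.16 to 6.32 in the vehicle animals. Of 14 macrophage markers Msr1, a scavenger receptor, was called higher (0.81 ± 0.20), as it lay below vehicle at 6 h (-0.86) and at -0.05 from it at 9 h. Without animals 1, 4 and 5 of the APAP group at 9 h that call was lost (0.70, adjusted p = 0.0686). The list mean overlapped between all 4 groups, from 8.86 to 9.43. The part of these cells in the matrix result was not tested.

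**Figure D2:**
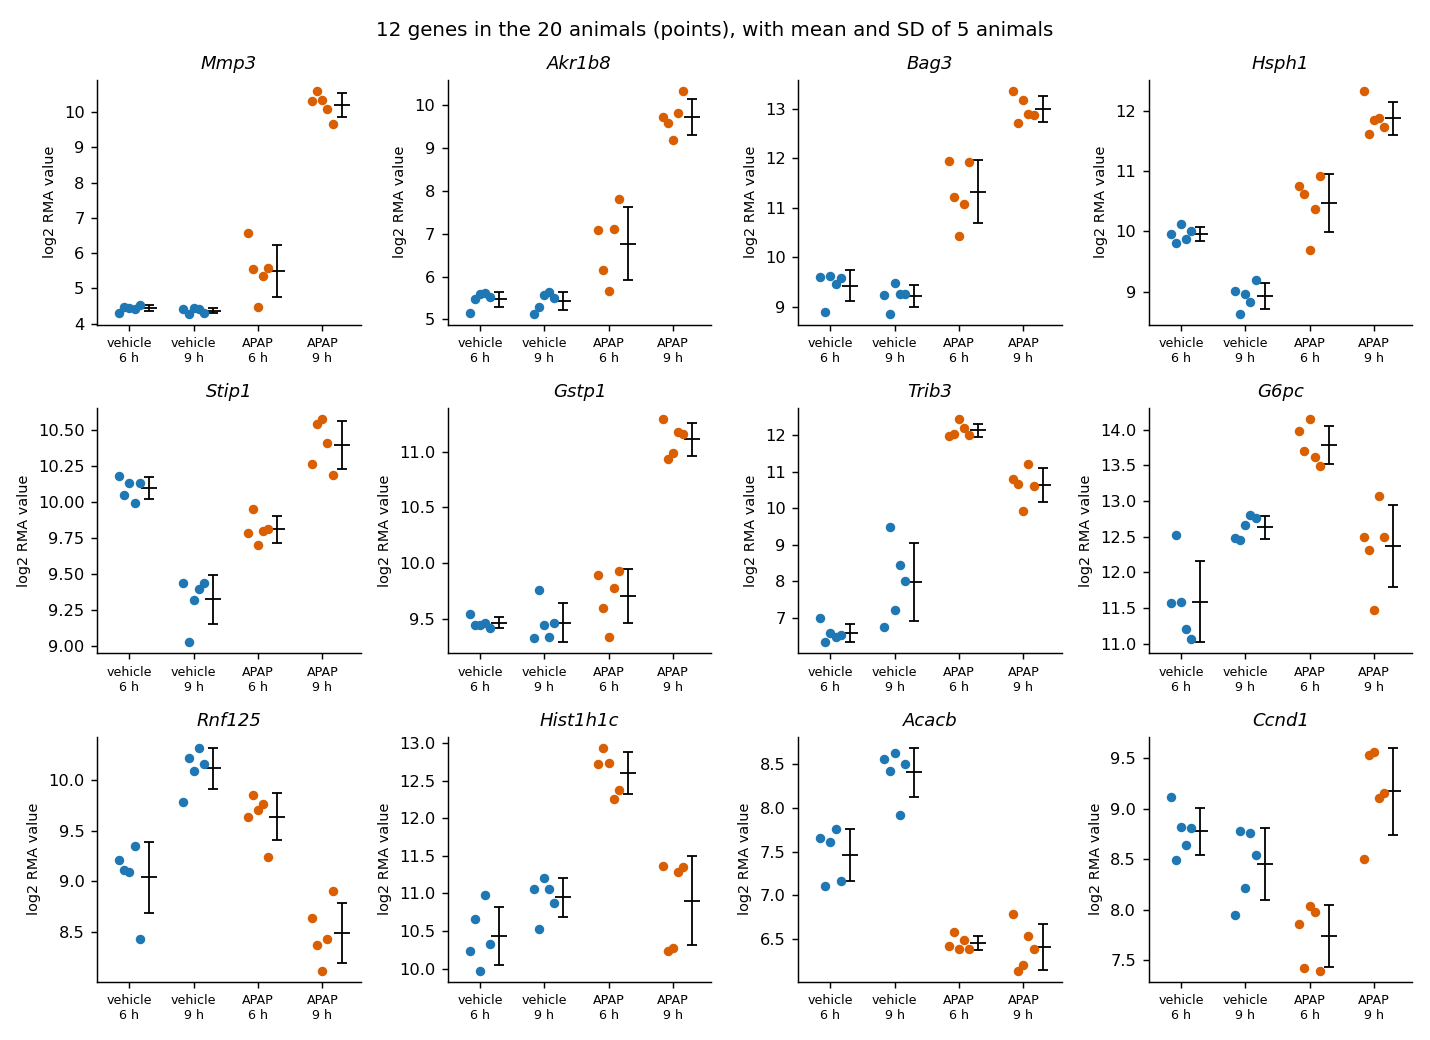
Log2 expression of 12 genes in the 4 groups (x axis), with 1 point per animal and the mean and SD of 5 animals beside them. Mmp3, Akr1b8, Bag3 and Gstp1 rise in the APAP animals over level vehicle animals, Hsph1 and Stip1 rise in APAP and fall in vehicle animals, and Acacb rises in the vehicle animals while the APAP animals stay between 6.14 and 6.79.

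Heat shock chaperones formed the list with the most calls. Of 21 measured members 9 had a higher effect at 9 h and none a lower one, and the median difference was 0.595. In the APAP animals 8 members rose, and in the vehicle animals Hsph1 and Stip1 fell. The count stayed at 9 without animals 2 and 3 or without animals 1, 4 and 5 of the APAP group at 9 h, and was 8 beside 1 lower with ribosomal centring.

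Hsph1 encodes Hsp110, an exchange factor for Hsp70. It lay at 10.75, 10.63, 9.69, 10.38 and 10.92 in the APAP animals at 6 h and at 12.33, 11.61, 11.84, 11.87 and 11.72 at 9 h. In the vehicle animals it went the other way, from 9.96, 9.81, 10.12, 9.88 and 10.01 to 9.01, 8.64, 8.96, 8.82 and 9.20. Neither arm overlapped between times. The effect was 0.52 at 6 h, where the ranges overlapped, and 2.95 at 9 h (difference 2.43 ± 0.25, 5.39-fold, limma adjusted p = 8.84e-06), of which 1.40 came from the rise in the APAP animals and 1.03 from the fall in the vehicle animals.

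Stip1 encodes Hop, the cochaperone that joins Hsp70 to Hsp90, and its APAP animals lay below the vehicle animals at 6 h (-0.29, not called) and above them at 9 h (1.07). The vehicle animals lay at 10.18, 10.05, 10.13, 9.997 and 10.13 at 6 h and at 9.44, 9.03, 9.32, 9.40 and 9.44 at 9 h. The APAP animals lay at 9.79, 9.96, 9.70, 9.80 and 9.81 at 6 h and at 10.26, 10.54, 10.58, 10.41 and 10.19 at 9 h. No pair of groups compared here overlapped (difference 1.36 ± 0.12, limma adjusted p = 1.14e-06). The rise in the APAP animals (0.59) lay on the 1.5-fold threshold, and the fall in the vehicle animals (-0.77) was past it.

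Bag3, a cochaperone that hands misfolded clients to autophagy, moved in the APAP animals alone. Its values there went from 11.95, 11.21, 10.43, 11.09 and 11.92 to 13.37, 12.71, 13.18, 12.90 and 12.87, and its vehicle values stayed between 8.86 and 9.61. The effect rose from 3.72-fold to 13.9-fold (difference 1.90 ± 0.32, limma adjusted p = 8.71e-04). Hspa1b, an inducible Hsp70 gene, was already 56.6-fold above vehicle at 6 h and reached 121-fold at 9 h (difference 1.10 ± 0.28). Its near-identical copy Hspa1a may share the probes, and without animals 1, 4 and 5 of the APAP group at 9 h the call was lost (1.09, adjusted p = 0.0564). The remaining calls were Dnajb1 (1.09), a cochaperone that delivers clients to Hsp70, the Hsp90 partner Chordc1 (0.94), the constitutive Hsp90 gene Hsp90ab1 (0.87), and the small heat shock protein genes Hspb8 (0.80) and Cryab (0.62). Of the transcription factor genes, named after their values were seen, Hsf1 had a difference of 0.19, and Hsf2 one of -0.52 that passed the adjusted p but not 1.5-fold.

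The bases before the start of the called chaperone genes were searched for the heat shock element, in which the blocks GAA and TTC alternate 3 times with 2 unspecified bases between them, on both strands. RefSeq promoters of build GRCr8 were at hand for 7 of the 9 called members, and 1 of the 7, Hsph1, held the element within 250 bases, as did 3 of 17 measured members and 159 of all 27457 promoters (0.579%). The Hsph1 promoter is shown because this gene had the largest difference of the list. It lies at chr12:10427118-10427367 on the plus strand, and the capitals mark the element.
Hsph1: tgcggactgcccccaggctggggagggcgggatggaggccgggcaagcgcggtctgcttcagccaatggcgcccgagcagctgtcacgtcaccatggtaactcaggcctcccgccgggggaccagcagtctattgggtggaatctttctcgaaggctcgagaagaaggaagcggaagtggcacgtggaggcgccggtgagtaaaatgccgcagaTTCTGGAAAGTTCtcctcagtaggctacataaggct

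The Nrf2 and glutathione list had 5 of 28 members called higher at 9 h and 1 called lower, with a median of 0.12. These counts were 4 and 2 without animals 2 and 3 of the APAP group at 9 h and 8 and 0 without animals 1, 4 and 5. Gstp1, a glutathione transferase that conjugates electrophiles, lay at 9.89, 9.60, 9.34, 9.77 and 9.93 in the APAP animals at 6 h and at 11.29, 10.94, 10.98, 11.18 and 11.16 at 9 h. Its vehicle animals stayed between 9.33 and 9.76, and the APAP animals at 6 h overlapped with them. The difference was 1.40 ± 0.14 (2.65-fold, limma adjusted p = 8.84e-06), and it lay wholly in the APAP animals. Gclm, the regulatory subunit of glutamate-cysteine ligase, likewise rose in the APAP animals alone (difference 0.83).

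Gclc, the catalytic subunit of the same enzyme and the limiting step of glutathione synthesis, moved in the vehicle animals instead. These lay at 11.10, 11.25, 11.12, 11.13 and 11.22 at 6 h and at 10.41, 10.37, 10.69, 10.49 and 10.70 at 9 h, without overlap. The APAP animals lay between 11.02 and 11.77 at 6 h and between 11.47 and 12.09 at 9 h, and their change of 0.29 ± 0.12 was not called. The difference was 0.92 ± 0.17 (limma adjusted p = 0.00221). Txnrd1, the cytosolic thioredoxin reductase, had a difference of 0.92 with neither change called. Ugdh, which makes the sugar donor for glucuronidation, had one of 0.97 ± 0.13. It combined a rise of 0.61 in the APAP animals with an uncalled change of -0.36 in the vehicle animals. Me1, an NADPH-producing enzyme of fat synthesis, was the member called lower, through a rise in the vehicle animals (0.94). Its call was kept in 12 of 20 fits that left out 1 animal (adjusted p from 0.00864 to 0.0633) and lost without animals 1, 4 and 5 of the APAP group at 9 h (-0.78, adjusted p = 0.165). Heme oxygenase Hmox1 (0.01) and sulfiredoxin Srxn1 (-0.11), picked out after their values were seen, stood 4.17 and 4.81 above vehicle at 6 h and 4.17 and 4.70 above it at 9 h.

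The 6 called members were searched in the same window for the antioxidant response element TGACNNNGC on both strands. It was found in 5 of them and in 6 of the 24 listed genes with a promoter in the table, against 10.2% of all promoters. Gclc, called higher, had 0 matches, and Me1, the member called lower, had 1. Gstp1, whose rise lay in the APAP animals, and Txnrd1, where both arms contributed, are shown with the element in capitals. The Gstp1 window is chr1:210769706-210769955 and that of Txnrd1 chr7:22755905-22756154, both on the minus strand, and the sequences read 5′ to 3′ towards the gene.
Gstp1: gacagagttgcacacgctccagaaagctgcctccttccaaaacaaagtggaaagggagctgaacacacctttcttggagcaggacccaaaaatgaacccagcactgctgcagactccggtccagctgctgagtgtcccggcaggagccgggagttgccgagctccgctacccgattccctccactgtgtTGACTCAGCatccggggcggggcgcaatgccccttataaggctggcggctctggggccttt
Txnrd1: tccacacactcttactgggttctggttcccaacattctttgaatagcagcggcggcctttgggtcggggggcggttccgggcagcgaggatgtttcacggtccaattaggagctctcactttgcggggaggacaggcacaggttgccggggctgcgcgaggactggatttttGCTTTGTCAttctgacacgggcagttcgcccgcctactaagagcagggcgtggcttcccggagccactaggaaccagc

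Other genes that rose in the APAP animals alone were led by Akr1b8, an aldo-keto reductase that clears reactive aldehydes. It lay at 7.09, 6.16, 5.66, 7.11 and 7.81 at 6 h and at 9.71, 9.59, 9.18, 9.81 and 10.33 at 9 h, over vehicle animals at 5.14 to 5.65. The effect grew from 2.46-fold to 19.6-fold (difference 3.00 ± 0.40, limma adjusted p = 1.24e-04). Tmbim1, a lysosomal membrane protein, rose from between 6.35 and 8.19 to between 8.94 and 9.45 (difference 1.87 ± 0.30). B4galt5, a galactosyltransferase of glycolipid synthesis, and Nabp1, a single-stranded DNA-binding protein, were not above vehicle at 6 h (-0.28 and -0.26) and were at 9 h (1.74 and 1.70). Their differences were 2.02 ± 0.28 and 1.95 ± 0.26, and every APAP animal at 9 h lay above every animal of the other groups. For B4galt5 an uncalled change of -0.56 in the vehicle animals was part of the difference. At 6 h APAP animal 3 had the lowest value of its group for Mmp3, Akr1b8, Bag3, Hsph1, Tmbim1, B4galt5 and Nabp1. Without that animal 373 genes were called, the smallest count among the 20 fits that left out 1 animal.

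The genes with a lower effect at 9 h and a called fall in the APAP animals alone included regulators of growth arrest. Hist1h1c, a linker histone, lay at 12.72, 12.94, 12.73, 12.26 and 12.38 in the APAP animals at 6 h and at 11.36, 10.23, 10.28, 11.29 and 11.35 at 9 h. The vehicle animals lay between 9.97 and 10.97 at 6 h and between 10.53 and 11.21 at 9 h, so that the 4.52-fold effect of 6 h had become 1.03-fold at 9 h (difference -2.22 ± 0.33, limma adjusted p = 2.74e-04). Btg2, an antiproliferative p53 target and immediate early gene, fell in the APAP animals from between 12.22 and 12.73 to between 10.20 and 11.47 (difference -1.58 ± 0.30) and was still 5.60-fold above vehicle. Tp53inp1, a p53 target that takes part in autophagy, had a difference of -1.79 ± 0.35 and was still 2.11-fold above vehicle. These were the 2 called members among 21 p53 targets, whose median was -0.04, while without animals 1, 4 and 5 of the APAP group at 9 h 6 were called lower and 1 higher. Zfp354a, a zinc finger transcription factor, went from a 7.67-fold effect to a 1.996-fold one (-1.94 ± 0.34). Part of these differences lay in uncalled changes of the vehicle animals. Those were 0.51 for Hist1h1c, 0.46 for Tp53inp1 and 0.61 for Zfp354a, against -0.01 for Btg2.

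Genes whose effect was not called at 6 h also went down, and so did Nrep, whose effect was already called there. Dixdc1, a Wnt pathway protein, lay at 6.43 to 7.51 in the APAP animals at 6 h and at 5.36 to 6.15 at 9 h (difference -1.93 ± 0.32). Its vehicle animals had an uncalled change of 0.55. Znf750, a zinc finger transcription factor of epithelial differentiation, lay at 7.44, 8.05, 9.25, 8.31 and 7.46 at 6 h and at 6.34 to 6.56 at 9 h (-1.84 ± 0.32). Nr1h4 encodes FXR, the bile acid receptor, and was the only called member of 20 bile acid genes. Its APAP animals lay between 10.19 and 10.68 at 6 h and between 9.27 and 9.49 at 9 h (-1.27 ± 0.13, limma adjusted p = 9.41e-06). Nrep, which was already 8.43-fold below vehicle at 6 h, had a difference of -1.67 ± 0.50 and kept its call in 5 of 20 fits that left out 1 animal (adjusted p from 0.00173 to 0.0710), and lost it without animals 2 and 3 of the APAP group at 9 h (-1.01, adjusted p = 0.111).

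The genes called in both arms on the lower side belonged in part to fasting metabolism. Trib3, a pseudokinase induced by Atf4, lay at 11.97, 12.03, 12.43, 12.19 and 12.004 in the APAP animals at 6 h and at 10.80, 10.67, 9.94, 11.22 and 10.60 at 9 h. In the vehicle animals it lay at 6.996, 6.34, 6.60, 6.48 and 6.53 at 6 h and at 6.76, 9.48, 7.22, 8.44 and 8.02 at 9 h, with a wide spread at 9 h. The effect narrowed from 46.4-fold to 6.33-fold (difference -2.87 ± 0.48, limma adjusted p = 8.90e-04), with 1.48 lost by the APAP animals and 1.39 gained by the vehicle animals.

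G6pc, glucose-6-phosphatase, is the last enzyme of glucose release. Its values in the APAP animals went from 13.97, 13.70, 14.14, 13.62 and 13.49 to 12.49, 12.31, 11.46, 13.07 and 12.49, and in the vehicle animals from 11.57, 12.52, 11.58, 11.20 and 11.07 to 12.48, 12.45, 12.66, 12.80 and 12.76. The groups were apart at 6 h and overlapped at 9 h. The effect was 4.58-fold at 6 h and -0.26 on the log2 scale, not called, at 9 h (difference -2.46 ± 0.35, limma adjusted p = 2.10e-04). Pfkfb1, the liver enzyme that sets fructose 2,6-bisphosphate, fell in the APAP animals (-0.70) and rose in the vehicle animals (0.78), and neither arm overlapped between times (difference -1.48 ± 0.16).

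Among 26 genes of gluconeogenesis and fasting 5 had a lower effect at 9 h and none a higher one, with a median of -0.10. Igfbp1, a secreted protein that sequesters insulin-like growth factors and is induced by fasting, was 43.9-fold above vehicle at 6 h and 9.83-fold at 9 h. Its vehicle animals lay at 8.38, 10.27, 7.62, 8.92 and 8.71 at 6 h and at 9.41, 11.49, 9.94, 10.01 and 9.83 at 9 h, and neither the change in them (1.35) nor that in the APAP animals (-0.81) was called (difference -2.16 ± 0.53). Tat, which degrades tyrosine, fell in the APAP animals (-0.93, difference -1.17), and Tsc22d3, a glucocorticoid-induced leucine zipper, was called lower by 0.91. Pck1, the entry enzyme of gluconeogenesis, had a difference of -1.97 that missed the threshold (adjusted p = 0.0893).

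Of 31 Atf4 targets 2 were called lower and none higher, with a median of -0.33. Beside Trib3 this was Phgdh, the entry enzyme of serine synthesis, which rose in the vehicle animals from 7.77, 7.05, 5.72, 7.84 and 7.72 to 7.65, 9.90, 8.17, 9.63 and 8.51. Its vehicle groups overlapped. Its call (-1.82 ± 0.56, limma adjusted p = 0.0464) was lost without either set of the APAP animals at 9 h that stood apart and was kept in 7 of 20 fits that left out 1 animal (adjusted p from 0.0184 to 0.0891). The count of the list was 1 without animals 2 and 3 of the APAP group at 9 h, 9 without animals 1, 4 and 5, 7 with ribosomal centring, and 1 to 6 over the fits that left out 1 animal. Asns (-1.28), Psat1 (-1.23) and Slc38a2 (-1.25) had differences past 2-fold that were not called (adjusted p from 0.0715 to 0.0922).

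**Figure D3:**
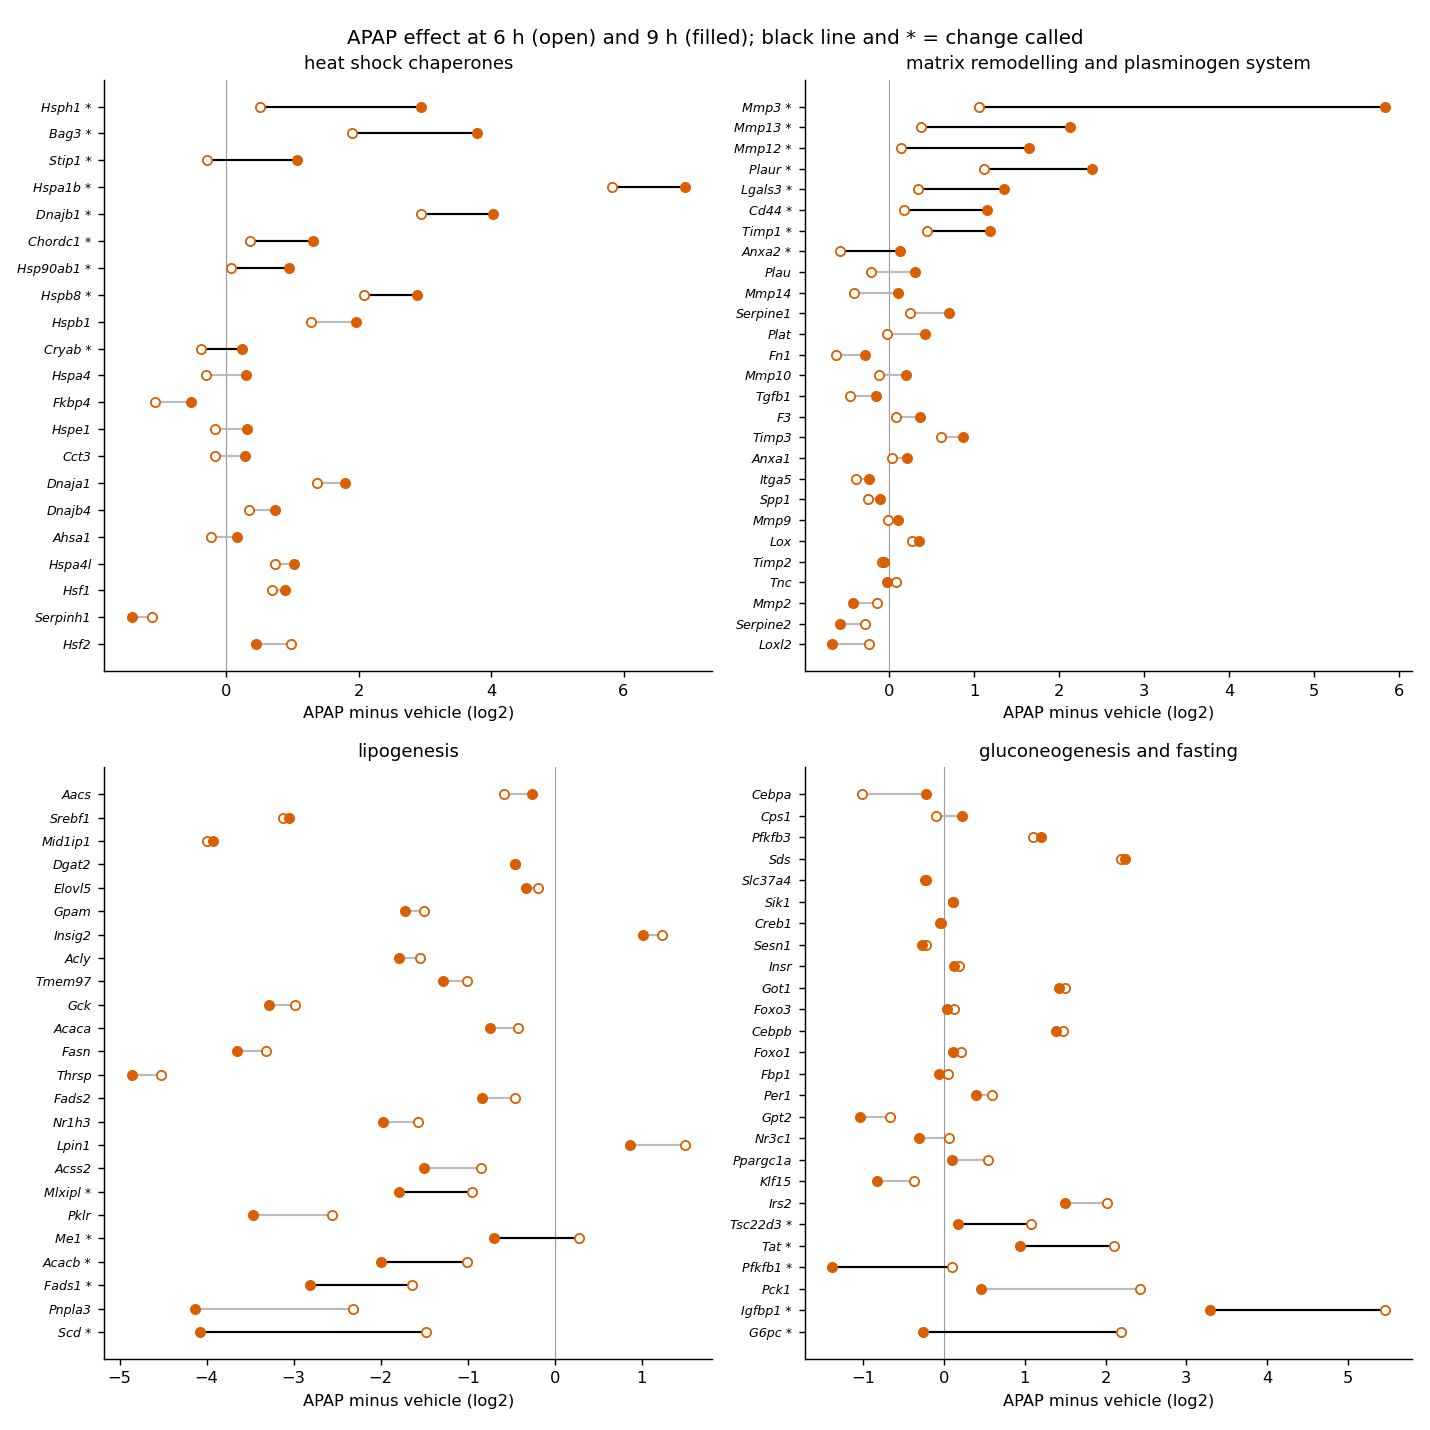
APAP minus vehicle difference (x axis, log2) at 6 h (open circles) and 9 h (filled circles) for every measured member of 4 lists, with a black line and an asterisk where the change was called. The 9 called chaperones and 8 called matrix genes move right, and the 5 called lipogenic and 5 called fasting genes move left, with G6pc reaching -0.26 from 2.20.

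Of 24 lipogenesis genes 5 had a lower effect at 9 h and none a higher one, with a median of -0.33. In the vehicle animals 4 members rose, with a median of 0.40, and in the APAP animals 2 fell, with a median of -0.09. Acacb, the acetyl-CoA carboxylase of the mitochondrial surface, lay at 7.66, 7.11, 7.61, 7.76 and 7.16 in the vehicle animals at 6 h and at 8.56, 8.43, 8.62, 7.92 and 8.50 at 9 h. Its APAP animals lay between 6.38 and 6.59 and between 6.14 and 6.79, and overlapped. The difference of -0.99 ± 0.20 (limma adjusted p = 0.00424) widened an effect that was 2.01-fold below vehicle to 3.98-fold below.

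Fads1, a desaturase of polyunsaturated fatty acids, had a difference of -1.17 ± 0.24, with a fall in the APAP animals (-0.59) beside a change of 0.59 in the vehicle animals that was not called (adjusted p = 0.0775). Mlxipl encodes ChREBP, the glucose-sensing activator of these enzymes, and had a difference of -0.84 with a rise of 0.59 in the vehicle animals. Scd, stearoyl-CoA desaturase, had the largest value of the list (-2.59 ± 0.78, limma adjusted p = 0.0423), but its vehicle animals at 6 h were scattered at 10.32, 9.18, 13.15, 12.50 and 10.08, and the call was kept in 6 of 20 fits that left out 1 animal (adjusted p from 0.00650 to 0.0842). It was also lost without animals 2 and 3 of the APAP group at 9 h (adjusted p = 0.104) and without animals 1, 4 and 5 (0.0568). At 9 h the vehicle animals lay at 14.001, 12.43, 13.72, 12.59 and 12.72 and the APAP animals at 8.39 to 9.71, without overlap. The regulator Srebf1 (0.07) and the synthase Fasn (-0.32), named after their values were seen, had effects of -3.12 and -3.32 at 6 h and of -3.05 and -3.65 at 9 h.

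Other genes moved in the vehicle animals alone. Tfrc, the transferrin receptor of iron uptake, lay at 10.54, 10.75, 11.18, 10.53 and 10.78 in them at 6 h and at 9.78, 9.40, 9.85, 9.48 and 10.04 at 9 h, while the APAP groups overlapped (difference 1.28 ± 0.29, limma adjusted p = 0.00737). Actb, the cytoskeletal actin often used as a reference gene, lay at 12.85 to 12.97 at 6 h and at 11.93 to 12.41 at 9 h in the vehicle animals (0.82 ± 0.15). Rtn4, an ER-shaping protein, and Hars, the histidyl-tRNA synthetase, had differences of 1.03 and 1.00 through falls of 0.74 and 0.66 in the vehicle animals. Gpat3, an acyltransferase of triglyceride synthesis, had a difference of 1.52 ± 0.42, and its vehicle animals fell from 8.33, 7.25, 9.04, 6.92 and 8.30 to between 6.48 and 6.82. Its call was lost without APAP animal 4 at 9 h (adjusted p = 0.0521), APAP animal 3 at 6 h (0.0556), or vehicle animals 1 (0.0534) or 5 (0.0558) at 6 h. Without animals 1, 4 and 5 of the APAP group at 9 h the calls of Tfrc (0.74, adjusted p = 0.0612), Rtn4 (0.65, adjusted p = 0.103) and Gpat3 (1.17, adjusted p = 0.146) were lost.

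On the lower side the vehicle animals rose. Csad, the decarboxylase of taurine synthesis, lay at 10.60 to 11.09 in them at 6 h and at 11.25 to 11.88 at 9 h, and Ddc, the aromatic amino acid decarboxylase, at 10.16 to 10.48 and at 10.80 to 11.28. The differences were -1.17 ± 0.21 and -1.13 ± 0.20, and both genes were further below vehicle at 9 h, by 3.96-fold and 8.51-fold. Nucb2 (-1.10), the precursor of nesfatin, had not differed from vehicle at 6 h and did at 9 h (-1.26). Crybg2 (-1.03 ± 0.14, limma adjusted p = 1.46e-04) had a change of -0.45 in the APAP animals that was short of 1.5-fold beside a rise of 0.59 in the vehicle animals.

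For 4 genes the effect was called at both times with opposite signs. Rnf125, a ubiquitin ligase that restrains antiviral signalling, lay at 9.64, 9.85, 9.71, 9.76 and 9.24 in the APAP animals at 6 h and at 8.63, 8.37, 8.12, 8.43 and 8.90 at 9 h. The vehicle animals went from 9.21, 9.11, 9.09, 9.35 and 8.43 to 9.78, 10.22, 10.09, 10.32 and 10.16. Neither arm overlapped between times. An effect of 0.60, where the groups overlapped, became -1.63 (difference -2.23 ± 0.23, limma adjusted p = 8.84e-06).

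The others passed from below vehicle to above it, mainly through the APAP animals. Part of the difference lay in the vehicle animals, which also went down. In them Tprn went from between 7.67 and 8.07 to between 7.03 and 7.63, and Kcnj8 from between 7.45 and 7.66 to between 7.18 and 7.41. Ccnd1, the cyclin that carries cells out of quiescence, lay at 7.86, 7.43, 8.04, 7.98 and 7.40 in the APAP animals at 6 h and at 8.50, 9.53, 9.56, 9.10 and 9.16 at 9 h, and the effect went from -1.03 to 0.72 (1.76 ± 0.28, limma adjusted p = 5.21e-04). It was the 1 called gene among 27 of the cell cycle, where 2 were called without animals 2 and 3 of the APAP group at 9 h and 3 without animals 1, 4 and 5. Kcnj8, a subunit of potassium channels gated by ATP, went from -0.71 to 0.90 (1.61 ± 0.20), and Tprn, which encodes taperin, from -0.62 to 0.72 (1.34 ± 0.18). For Kcnj8 and Tprn the APAP and vehicle animals did not overlap at either time. The number of genes in this class was 2 to 6 over the fits that left out 1 animal, with 2 called without APAP animal 3 at 6 h, and 0 at a 2-fold threshold.

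Effects that had been below vehicle at 6 h and faded also occurred. Arrdc3, an arrestin that lowers surface receptors, was 5.60-fold below vehicle at 6 h and 1.71-fold below at 9 h (1.71 ± 0.32), with a rise of 0.70 in the APAP animals and a fall of 1.02 in the vehicle animals. Dusp6, a phosphatase that switches off ERK, went from -1.56 to 0.03 (1.596 ± 0.43), and Irf1, an interferon-induced transcription factor, from -1.08 to -0.01 (1.07 ± 0.16), both with a rise in the APAP animals alone. For Dusp6 APAP animal 3 at 6 h, at 6.85, lay well below the other 4 at 8.06 to 8.81, and the call was lost without animals 1, 4 and 5 of the APAP group at 9 h (1.49, adjusted p = 0.0921). Rora, an activator of the clock loop, had the reverse course, from 2.60-fold above vehicle at 6 h to 1.13-fold below at 9 h (-1.55 ± 0.19, limma adjusted p = 5.08e-05), and was the 1 called gene among 21 of the clock. Olr59, annotated as an olfactory receptor, fell in the APAP animals (-0.82) and rose in the vehicle animals (0.74).

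Inflammatory genes moved for a few members. Of 34 cytokines, chemokines and their partners 3 were called higher and 1 lower, with a median of 0.26. Ccl2, which attracts monocytes, lay at 6.16, 5.67, 5.58, 5.77 and 6.64 in the APAP animals at 6 h and at 7.67, 6.70, 7.19, 7.73 and 8.33 at 9 h, over vehicle animals at 5.30 to 6.08 (1.48 ± 0.33, limma adjusted p = 0.00791). Osmr, the receptor of oncostatin M, rose likewise (1.04 ± 0.28). Csf1, the growth factor of macrophages, was called at 0.61, just past the fold threshold, and fell under it without animals 1, 4 and 5 of the APAP group at 9 h (0.47). Vcam1, an adhesion molecule of vessel walls, was called lower (-0.75), and the call was kept in 8 of 20 fits that left out 1 animal (adjusted p from 0.0141 to 0.0717) and lost without animals 1, 4 and 5 (-0.67, adjusted p = 0.118). Il6 (0.02) and Il1b (0.47), picked out after their values were seen, were not called. The count of members called higher was 9 without animals 2 and 3 of the APAP group at 9 h and 1 without animals 1, 4 and 5, where Ccl2 (0.90, adjusted p = 0.0643) and Osmr (0.93, adjusted p = 0.101) lost their calls. The levels of the neutrophil and monocyte list given above moved in the same animals, and their part in this result was not tested.

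Several lists of growth and biosynthesis had calls on the higher side only when all animals were fitted on the deposited scale. One was the list of polyamine and one-carbon synthesis (3 of 22). Its called members were the CTP synthase Ctps1 (1.13 ± 0.19), Cad (0.61) and Impdh2 (0.60), all enzymes of nucleotide synthesis. The calls of Cad and Impdh2 were kept in 16 and 12 of 20 fits that left out 1 animal. The other lists were RNA polymerases, nuclear export and helicases (3 of 27, with the helicase Ddx39a at 0.88), hypoxia and glycolysis (3 of 21, with the peptide hormone gene Adm at 1.02 ± 0.21), ribosome biogenesis (2 of 24, with the nucleolar protein gene Nop56 at 1.17 ± 0.21) and the proteasome (2 of 29, Psma5 and Psmd14 at 0.59 each, calls kept in 12 and 11 of 20 fits that left out 1 animal). The medians of these lists lay between 0.05 and 0.18. With ribosomal centring there were 1 higher and 1 lower in the polyamine and one-carbon list and 2 and 1 in the RNA polymerase list. There was 1 higher in hypoxia, 1 in ribosome biogenesis and 0 in the proteasome list. Leaving out 1 animal gave 1 to 4 higher in the polyamine and one-carbon list, 0 to 2 in the proteasome and 1 to 2 in the ribosome biogenesis list. Without animals 2 and 3 of the APAP group at 9 h the RNA polymerase and ribosome biogenesis counts were 2 and 1, and without animals 1, 4 and 5 they were 5 and 4. The proteasome and hypoxia counts also rested on the arrays that stood apart, since they were 0 and 4 without animals 2 and 3 of the APAP group at 9 h and 5 and 1 without animals 1, 4 and 5, where Adm (0.55) and Ddx39a (0.55) came under the fold threshold. Among 30 immediate early genes 3 were called higher, including the AP-1 subunit Fosl1 (1.15 ± 0.24), and 2 lower, Btg2 and the phosphatase gene Dusp8 (-0.78). The balance was 5 higher and 2 lower without animals 2 and 3 of the APAP group at 9 h, 1 and 7 without animals 1, 4 and 5, and 3 and 5 with ribosomal centring. Among 27 regulators of cell death 3 were called higher and the proapoptotic Hrk (-0.88 ± 0.13) lower, with Bcl2a1, which opposes apoptosis, at 0.84 ± 0.18. The call of Bcl2a1 was lost without animals 1, 4 and 5 of the APAP group at 9 h (0.58, adjusted p = 0.0585), and with ribosomal centring 1 member of the list was called higher.

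**Figure D4:**
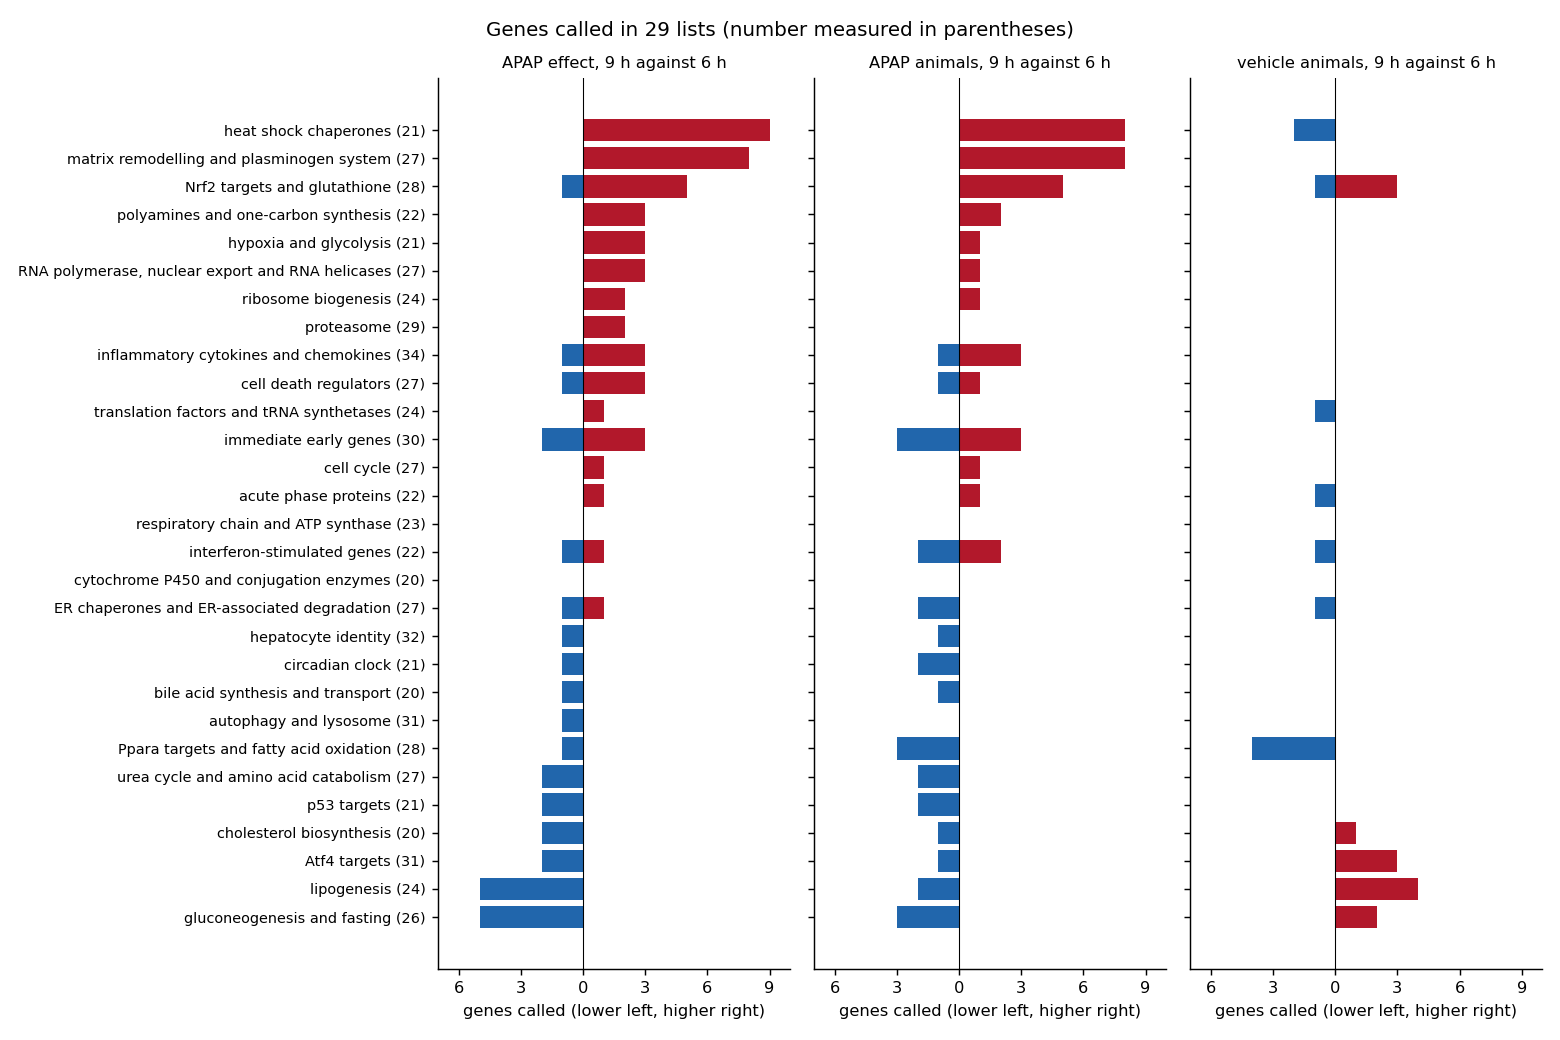
Number of genes called higher (right) or lower (left) in each of 29 lists, for the change of the APAP effect and for the change from 6 to 9 h within the APAP and within the vehicle animals (x axes, genes). The chaperone and matrix lists lead with 9 and 8, and lipogenesis is the list with the most rises, 4, in the vehicle animals.

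Other lists had few calls, and over all genes 1.66% were called higher and 1.46% lower. A count of 0 or 1 in a list of this size lies near that share and says little about the list. The same holds for the single calls in the cell cycle, clock and bile acid lists above. No gene was called among 20 cytochrome P450 and conjugation enzymes (lowest adjusted p 0.0843, Cyp26a1) or among 23 genes of the respiratory chain and ATP synthase, where Uqcrc2 (0.38) and Ndufa9 (-0.32) were among those that passed the adjusted p but not 1.5-fold. Among 32 genes of hepatocyte identity only Nr1i2, the drug sensor PXR, was called (-0.63), and the call was lost without vehicle animals 1 (-0.58) or 5 (-0.58) at 9 h or vehicle animal 5 (-0.58) at 6 h, or without animals 2 and 3 of the APAP group at 9 h (-0.55), which brought the difference under the threshold. Endothelial, cholangiocyte, lymphocyte and erythroid or platelet markers had no call in the difference with all animals. Without animals 2 and 3 of the APAP group at 9 h 4 erythroid and platelet markers and 1 lymphocyte marker were called higher and 2 endothelial markers lower, and with ribosomal centring 3 endothelial markers and 1 cholangiocyte marker were called lower. The mean of the endothelial list ran from 8.13 to 8.38 in the APAP animals at 9 h, below the 8.40 to 8.58 of the other groups. The erythroid and platelet list, with 3 of 11 members rising in the APAP animals, ran from 7.58 to 8.78 in them at 9 h against 7.70 to 8.07 elsewhere. Hbb, which encodes beta globin, lay at 14.69, 14.48 and 14.73 in APAP animals 1, 4 and 5 at 9 h and at 13.49 and 13.62 in animals 2 and 3, so it was higher in the same animals that stood apart, and its part in the other results was not tested. Of 16 stellate cell and fibroblast markers Lrat, the retinol esterase of stellate cells, was called lower (-1.01 ± 0.21).

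The remaining groups of the series, which took no part in the tests, placed these changes in time. Mmp3 was at 4.38 ± 0.10 (SD, n = 5) in the APAP animals at 3 h, as before dosing (4.45 ± 0.10), and at 7.15 ± 1.37 at 24 h. Akr1b8 stayed high at 24 h (9.36 ± 1.04 against 5.38 ± 0.26 in vehicle animals), and Gstp1 went higher still (13.47 ± 0.45 against 9.39 ± 0.01). At 24 h Hsph1 was at 9.28 ± 0.19 in APAP and 9.18 ± 0.30 in vehicle animals, Bag3 at 9.17 ± 0.26 and 8.99 ± 0.39, and Hspa1b at 8.15 ± 0.82 and 7.20 ± 0.49. In vehicle animals Hsph1 had been at 10.997 ± 0.14 at 3 h, above its level before dosing (10.04 ± 0.20). G6pc had been at 13.98 ± 0.11 before dosing, and at 3 h it was at 14.07 ± 0.18 in APAP animals and at 11.18 ± 0.33 in vehicle animals. Rnf125 in vehicle animals was lowest at 3 h (7.96 ± 0.29, against 9.68 ± 0.23 before dosing), and its APAP animals were lowest at 9 h. Hist1h1c was as high in APAP animals at 3 h (12.61 ± 0.31) as at 6 h.

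**Figure D5:**
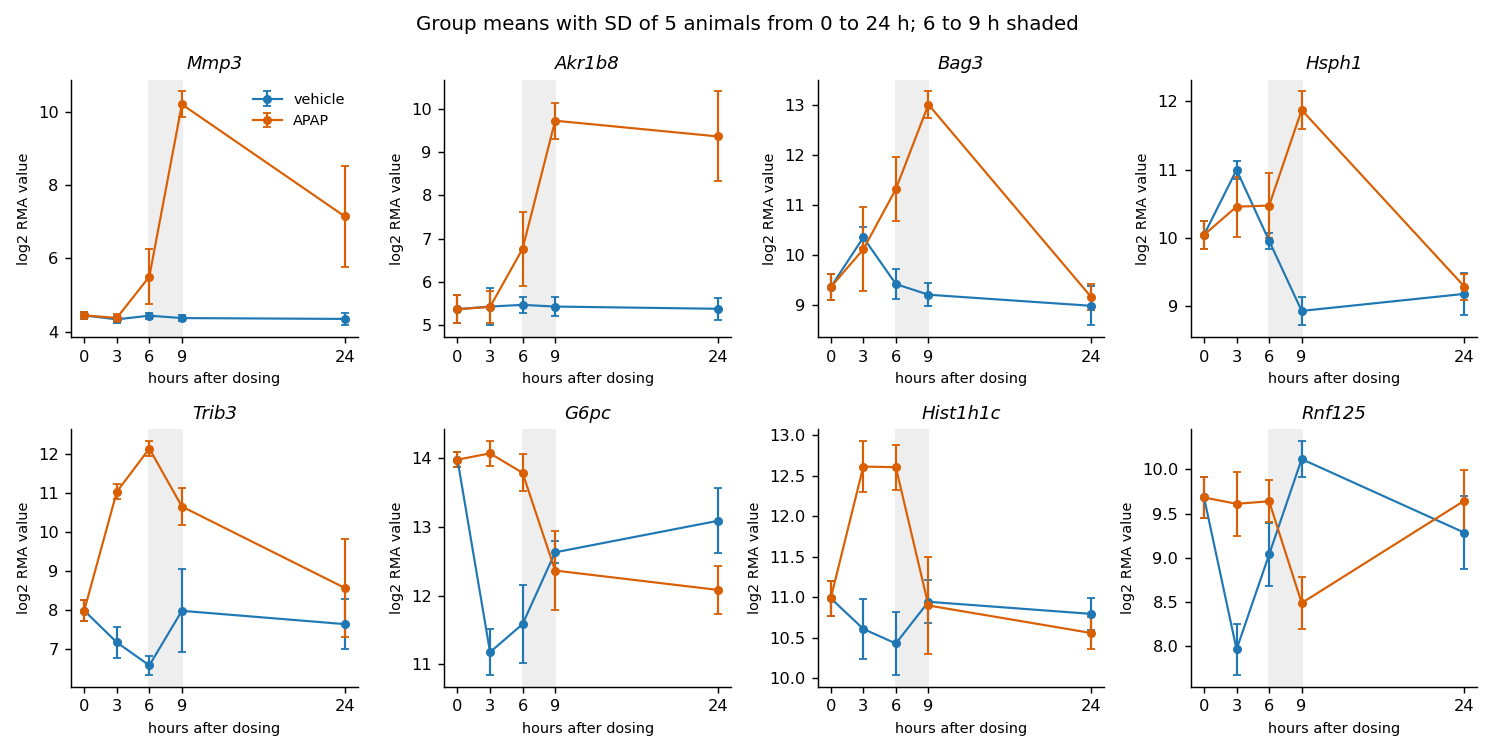
Mean log2 expression with SD of 5 animals for 8 genes over hours after dosing (x axis) in vehicle (blue) and APAP animals (orange), with the interval from 6 to 9 h shaded and the shared group before dosing at 0 h. Mmp3 and Bag3 have their highest APAP mean at 9 h, and the APAP and vehicle lines of G6pc and Rnf125 cross within the shaded interval.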

How the data were processed

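Liver RNA of 45 rats was hybridised to Affymetrix Rat Genome 230 2.0 arrays, and 20 of the arrays entered the fit. The deposited values are log2 expression levels that the authors made by RMA (affy 1.64.0, R 3.6.1) with a custom gene-level probe set definition. Genes were named by the symbol column deposited beside the values; 615 symbols differ from the current table, and 918 genes had no proper symbol. A further 45 value columns, beside those symbols, carry animal codes that no label explains and were not used. Arrays carry no read depth, and their number limits the precision.

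The 4 groups were fitted together in limma 3.58.1 (R 4.3.3), with Benjamini-Hochberg adjustment of the p-values across 13877 genes. A call needed an adjusted p under 0.05 and 1.5-fold. The labels do not say more about replicates than that each is an animal. Named genes were the 6 largest per mover class and direction, up to 4 called members of each list (2 of lowest p where none was called), and all with opposite effects. The values of 1 named gene are not reported here. The comparison, the gene lists and the members were chosen with earlier results of these data known. On simulated data with 50 changed genes per size, 37 were recovered at 1.6-fold, 48 at 2-fold, 50 at 3-fold and 50 at 5-fold, and 2 unchanged genes were called. Promoters came from RefSeq (GRCr8). Alternatives covered the model, the normalisation, the thresholds, the dim genes and each animal left out.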

Additional observations from a re-analysis of the deposited data

Results flagged for a closer look

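The test of the difference itself called 231 genes with a higher and 203 with a lower APAP effect at 9 h than at 6 h, and 4 of these had called effects of opposite sign at the 2 times, with differences of -2.23 for Rnf125, 1.76 for Ccnd1, 1.61 for Kcnj8 and 1.34 for Tprn.

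Single animals lay far from the other 4 of their group, by Dixon's test at 0.71, in 22 of 400 groups of 5 examined over 100 named genes, where chance alone gives about 1 in 20. Vehicle animal 2 at 9 h held 7 of them, with log2 levels of 11.25 for Csad, 9.03 for Stip1, 5.97 for Bid, 11.49 for Igfbp1, 7.83 for P4ha1, 6.49 for Prf1 and 9.06 for Slc4a2. The other vehicle animals at 9 h were animal 4 for Acacb (7.92) and animal 5 for Hrk (6.92). At 6 h these were vehicle animal 2 for Bag3 (8.89) and vehicle animal 5 for Rnf125 (8.43), S100a8 (3.98) and Lyve1 (10.12). Among the APAP animals at 9 h, animal 2 stood apart for Hyou1 (8.75), Bcl2a1 (6.02), Fcnb (5.67) and Prf1 (5.76), animal 5 for Rora (9.32), animal 3 for Krt19 (5.17) and animal 1 for Tprn (7.90). At 6 h APAP animal 3 stood apart for Ddx39a (9.29) and Tprn (6.62).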

How the results depend on the processing

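The call of the difference was kept by 64 of 86 named genes in all 20 fits that left out 1 animal. No named gene called with all animals or under an alternative turned its direction there. Turns among named genes called in neither fit were not counted. On leaving out 1 animal the called differences ranged from 373 to 461 (194 to 258 higher, 169 to 225 lower), the changes in the APAP animals from 263 to 351 and in the vehicle animals from 32 (without vehicle animal 5 at 6 h) to 57, and the effects from 1868 to 1996 at 6 h and from 2344 to 2448 at 9 h. The genes moving in the APAP animals alone ranged from 168 to 234, in the vehicle animals alone from 12 (without vehicle animal 5 at 6 h, or 13 without vehicle animal 2) to 25, in both from 4 (without vehicle animals 4 or 5 at 9 h or 4 at 6 h, or 5 without vehicle animals 3 or 5 at 6 h) to 8 and in neither from 176 to 218. Effects at 9 h alone ranged from 119 to 161, at 6 h alone from 76 to 94, at both times and larger from 80 to 104, smaller from 23 to 41, opposite from 2 (without APAP animal 3 at 6 h) to 6 and at neither time from 62 to 88.

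At 2-fold 109 differences were called (63 higher, 46 lower), with 71 changes in APAP and 14 in vehicle animals, 694 effects at 6 h and 894 at 9 h, movers of 48, 4, 4 and 53 (APAP alone, vehicle alone, both, neither) and effects of 43, 26, 18, 6, 0 and 16 (9 h alone, 6 h alone, larger, smaller, opposite, neither time). With no fold threshold these were 1225 (664 and 561), 1818 and 334, 6082 and 6654, movers of 823, 124 and 55 before neither, and effects of 383, 234, 380, 138, 87 and 3. At an adjusted p under 0.01 the count was 284 (151 and 133), with 25 changes in vehicle animals, 10 vehicle alone, 4 both and 125 neither, and 61 larger, 20 smaller and 46 at neither time. Ribosomal centring gave 122 higher and 482 lower, 315 neither, 134 at 6 h alone and 48 smaller. Fewer or more genes past the threshold follow from the threshold itself; for the centring the cause was not tested.

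In alternatives chosen after seeing the data, leaving out APAP animals 1, 4 and 5 at 9 h gave 688 calls (388 higher), 524 changes in APAP animals, 373 APAP alone, 246 at 9 h alone, 152 at 6 h alone, 63 smaller and 133 at neither time, and leaving out animals 2 and 3 gave 227 at 9 h alone. The cause was not tested. The counts of calls stayed within 1.5 times with all 45 arrays (457), robust limma-trend (426), array weights (445), without the dimmest genes (423) and with cyclic loess (418). With the replicate number as a block 431 genes were called, 417 of them shared, and Gpat3 and Bid lost their calls. The numbers did not pair the animals, as deviations of 30 same-numbered pairs correlated from -0.17 to 0.20, and 6 of 20 arrays correlated best with their own number.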
